A study of Homo sapiens with 42 samples.

Results

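NF-κB transcript levels were measured for 10 genes in 42 RNA-seq libraries of human lung fibroblasts. The genes were the 5 genes that encode the NF-κB subunits (NFKB1, NFKB2, REL, RELA and RELB), 4 genes of inhibitors and feedback regulators (NFKBIA, NFKBIZ, TNFAIP3 and BIRC3) and the target gene TNFAIP2. They were taken by name from the 28266 gene symbols of the count table, with earlier results of these data known, and all 10 were counted in every library. The study asked how senescent and non-senescent cells respond when COPB2, a subunit of the coatomer complex I that carries vesicles between the Golgi and the endoplasmic reticulum, is knocked down. IMR90 is a strain of normal human fetal lung fibroblasts. IMR90 ER:RAS cells carry a fusion of the oestrogen receptor and oncogenic HRAS activated by 4-hydroxytamoxifen (4OHT), and the active fusion drives oncogene-induced senescence (OIS). IMR90 cells without the fusion were driven into senescence with bleomycin, which breaks DNA.

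The 12 groups were ER:RAS cells given DMSO or 100 nM 4OHT (n = 3 libraries per group) and IMR90 cells given DMSO or 50 µg/ml bleomycin for 24 h (n = 4 per group), each with a control shRNA or with COPB2 shRNA 1 or COPB2 shRNA 2. All cells, controls included, carried a Tet-ON inducible shRNA vector, were cultured for 7 days, received 1 µg/ml doxycycline for 72 h to express the shRNA and were collected on day 10. The labels do not say whether libraries of a group came from separate cultures. The study calls its replicates independent experiments in a figure legend on these knockdowns, without tying them to the single libraries, so the p-values measure the spread between these libraries. Total counts ran from 13148194 to 23597310 per library. All 9 fibroblast markers were detected (summed level 7998 to 27185 CPM, counts per 1e6 counts of a library), while the 5 epithelial markers summed to 0.120 to 1.83 CPM. The fibroblast markers moved with senescence: with the control shRNA 7 of the 9 fell and VIM rose with 4OHT, and 7 fell with bleomycin (6 without replicate 4 of the bleomycin groups). DCN went from a mean of 1588 to 10.6 CPM and COL3A1 from 2498 to 96.2 CPM with 4OHT, and from 2195 to 531 CPM and from 3883 to 774 CPM with bleomycin. The 5 endothelial markers summed to 7.37 to 37.2 CPM, with opposite moves within the sum. With 4OHT and the control shRNA TEK fell from a mean of 14.3 to 3.04 CPM, while PECAM1 rose from 0.0679 to 2.68 CPM, VWF from 2.199 to 5.48 CPM and CDH5 to 2.19 CPM from 0 in the DMSO libraries. With bleomycin PECAM1 (0.0127 to 0.816 CPM) and KDR (0.0663 to 0.375 CPM) rose and VWF (4.28 to 1.58 CPM) fell, with or without replicate 4. The 7 white blood cell markers summed to 13.2 to 119.7 CPM, nearly all from CD68, which encodes a lysosomal protein. Their sum with the control shRNA was 17.8 to 39.9 CPM with DMSO and 112 to 119.7 CPM with 4OHT in ER:RAS cells, and 13.9 to 28.9 CPM with DMSO and 58.5 to 97.0 CPM with bleomycin in IMR90 cells. In 4OHT cells with the control shRNA 4 of the 7 were detected, and CD3E and ITGAM were at 0. CSF1R rose there from a mean of 0.0758 to 1.30 CPM (log2 fold change 3.92, edgeR adjusted p = 0.000792), so CD68 was not alone in rising. In bleomycin cells with the control shRNA 6 of the 7 were detected, and with all libraries CD68 was not the only marker called higher. The part of these markers in the NF-κB values was not tested. Replicate 4 of the bleomycin groups stood above the other libraries for most NF-κB genes, so their bleomycin results are given with and without it.

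NF-κB proteins bind DNA as pairs of subunits. RELA, REL and RELB carry the activation domains, and NFKB1 and NFKB2 encode long precursors that are processed to DNA-binding subunits and that, unprocessed, hold their partners in the cytoplasm. In the canonical route, receptors for interleukin-1, TNF or Toll-like receptor ligands trigger the IκB kinase, the inhibitor IκBα (NFKBIA) is destroyed and RELA-containing dimers enter the nucleus. In the alternative route NFKB2 is processed and RELB is its usual partner. NFKBIA, TNFAIP3 and BIRC3 are themselves NF-κB target genes that feed back on the pathway, and NF-κB drives much of the cytokine secretion for which senescent fibroblasts are known.

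Per kilobase of transcript, which allows genes to be compared, RELA and NFKBIA had the highest levels of the 10 genes in non-senescent cells. In ER:RAS cells with DMSO and the control shRNA the mean levels were 53.3 CPM per kb for RELA, 50.5 for NFKBIA, 24.2 for NFKB2, 18.6 for RELB and 13.4 for NFKB1. TNFAIP2 followed with 5.92, NFKBIZ with 4.32 and TNFAIP3 with 2.98 CPM per kb. BIRC3 (0.756 CPM per kb) and REL (0.172) were far below the others. After 4OHT the order of the means was NFKBIA (100.1 CPM per kb), RELA (68.4), NFKB2 (56.5), RELB (54.7), NFKBIZ (20.4), TNFAIP2 (13.4), TNFAIP3 (12.3), NFKB1 (11.3), BIRC3 (4.27) and REL (0.351). NFKB1 was thus 5th of the 10 with DMSO and 8th with 4OHT. The libraries of neighbours in that order overlapped, except RELB above NFKBIZ, NFKB1 above BIRC3 and BIRC3 above REL. With DMSO the neighbours without overlap were NFKBIA above NFKB2, RELB above NFKB1, NFKB1 above TNFAIP2 and TNFAIP3 above BIRC3.

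**Figure D1:**
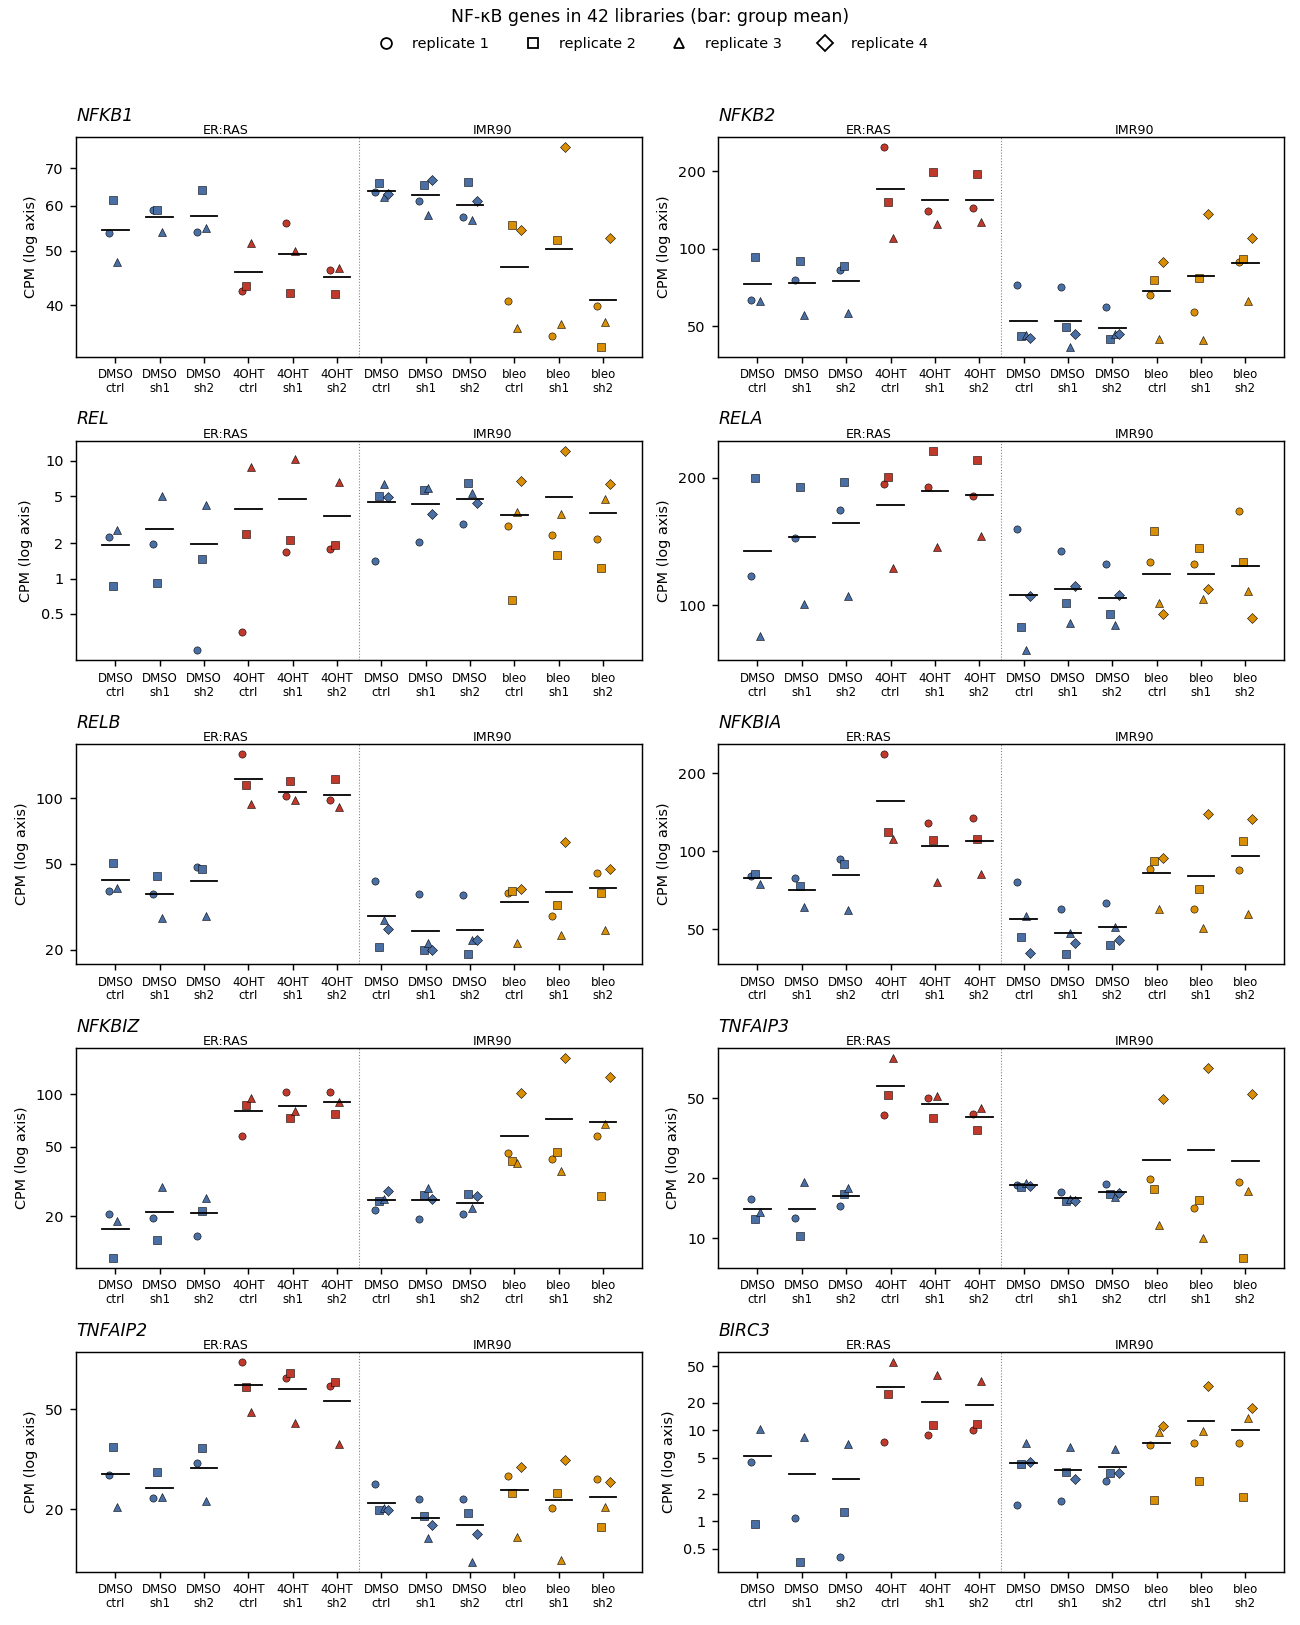
Level of each NF-κB gene (CPM, log axis) in every library, by group: ER:RAS on the left, IMR90 on the right, blue for DMSO, red for 4OHT and orange for bleomycin (bleo), with the control shRNA (ctrl), COPB2 shRNA 1 (sh1) or COPB2 shRNA 2 (sh2). Markers show the replicate number and bars the group mean. RELB, NFKBIZ, TNFAIP3, NFKB2 and TNFAIP2 in all 9 4OHT libraries lay above all 9 ER:RAS DMSO libraries, while NFKB1, REL, RELA, NFKBIA and BIRC3 overlapped. The share of all genes that separate in this way over 9 against 9 libraries was not computed. Replicate 4 (diamonds) lay highest in most bleomycin groups.

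The sequence before the transcription start is shown for NFKBIZ, the only NF-κB gene called in both senescence models with the control shRNA, and for TNFAIP3 and NFKBIA, feedback genes added after their values were seen. The sequences are the 250 bases before each annotated start in RefSeq (GRCh38.p14), 5′ to 3′ on the gene's strand, with matches to the κB consensus, searched on both strands, in capitals. NFKBIZ has a pair of windows in the table, at chr3:101827740-101827989 (plus strand) and, within the gene, at chr3:101849264-101849513 (plus strand). The windows of TNFAIP3 (chr6:137867009-137867258, plus strand) and NFKBIA (chr14:35404750-35404999, minus strand) are the only ones the table holds for these genes, and that of TNFAIP3 lies inside the RefSeq span of its gene.
NFKBIZ, upstream start: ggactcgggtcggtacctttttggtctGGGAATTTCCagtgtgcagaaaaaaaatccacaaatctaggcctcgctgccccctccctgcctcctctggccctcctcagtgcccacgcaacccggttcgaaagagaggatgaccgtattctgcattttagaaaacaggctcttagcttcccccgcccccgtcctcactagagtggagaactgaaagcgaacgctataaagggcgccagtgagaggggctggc
NFKBIZ, downstream start: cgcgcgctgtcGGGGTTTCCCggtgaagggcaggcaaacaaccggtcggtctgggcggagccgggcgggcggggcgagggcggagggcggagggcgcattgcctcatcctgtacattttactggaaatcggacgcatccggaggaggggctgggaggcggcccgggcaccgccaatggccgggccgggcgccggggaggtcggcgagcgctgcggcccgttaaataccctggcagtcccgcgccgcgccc
TNFAIP3: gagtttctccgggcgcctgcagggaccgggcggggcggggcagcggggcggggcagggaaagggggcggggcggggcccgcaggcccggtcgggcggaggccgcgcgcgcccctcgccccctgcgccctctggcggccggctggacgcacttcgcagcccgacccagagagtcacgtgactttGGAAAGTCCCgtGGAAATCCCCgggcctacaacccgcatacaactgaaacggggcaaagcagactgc
NFKBIA: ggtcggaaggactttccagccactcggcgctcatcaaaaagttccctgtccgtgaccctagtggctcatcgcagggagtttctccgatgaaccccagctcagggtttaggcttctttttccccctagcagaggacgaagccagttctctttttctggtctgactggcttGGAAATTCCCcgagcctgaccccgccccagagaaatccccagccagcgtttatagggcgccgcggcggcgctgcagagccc

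The first base of the match lay at position -223 before the upstream NFKBIZ start, at -239 before the downstream one, at -67 and -55 in TNFAIP3 and at -81 in NFKBIA. Over windows of 300 bases (250 before and 50 after the start), 7 of the 9 NF-κB genes with a RefSeq window held at least 1 match, as did 9 of their 14 windows, against 11.3% of 35116 windows of all genes. RELA and TNFAIP2 held no match, and RELB had no window in the table. A match is a description of the letters and no evidence of binding. By RefSeq, NFKBIZ (chr3:101827990-101861022, plus strand) overlaps NXPE3, TNFAIP3 (chr6:137866349-137883312, plus strand) overlaps WAKMAR2, and TNFAIP2 (chr14:103121469-103137439, plus strand) overlaps LINC00677. All 3 neighbours are in the count table. The study's methods name a directional library kit and a first-strand setting for an aligner other than the one in the submitters' notes, and whether reads were counted by strand is not given in the sources used here, so reads in the shared stretches cannot be assigned with certainty.

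In OIS with the control shRNA, 6 of the 10 genes rose and none fell at an adjusted p under 0.05 (edgeR). Across all genes 35.7% of 14297 were called and 15.5% were called higher. The 4OHT and DMSO libraries did not overlap for 6 of the genes, against 39.1% of all genes tested. The median log2 fold change was 1.11 for the 10 genes and -0.08 for all genes, which became 0.04 for all genes with DESeq2 size factors. Among the subunits, RELB and NFKB2 rose and the other 3 were not called. RELB, the partner of processed NFKB2, stood at 37.3, 50.3 and 38.5 CPM with DMSO and at 159.9, 116 and 94.7 CPM with 4OHT. All 3 senescent libraries were above all 3 controls. The fold change was 2.75 (log2 1.46, SE 0.24, adjusted p = 0.000177). In bulk libraries such as these, a larger share of cells with a transcript and more of it per cell cannot be told apart.

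NFKB2, which encodes the p100 precursor of the alternative route, had 63.2, 93.0 and 62.6 CPM with DMSO and 249.1, 152 and 109.8 CPM with 4OHT. The groups did not overlap, although the 4OHT libraries spread widely. The log2 fold change was 1.13 (SE 0.29, adjusted p = 0.00590). RELA, the main activating subunit of the canonical route, had 117, 200.3 and 84.5 CPM with DMSO and 193, 201 and 123 CPM with 4OHT, so the groups overlapped (log2 fold change 0.27, SE 0.32, adjusted p = 0.555). NFKB1, which encodes the p105 precursor, had 53.7, 61.5 and 47.7 CPM with DMSO against 42.4, 43.2 and 51.5 with 4OHT. It was the only gene of the 10 with a negative value (log2 fold change -0.33, SE 0.17), and it missed the threshold (adjusted p = 0.151). REL, which is best known from lymphocytes, was near the detection limit, with 14 to 53 counts per DMSO library and 4 to 139 counts per 4OHT library (log2 fold change 0.96, SE 1.08, adjusted p = 0.546).

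NFKBIZ and TNFAIP3 had the largest called changes of the 10 genes in OIS. NFKBIZ encodes a nuclear IκB protein that acts as a cofactor for a subset of NF-κB targets. Its levels were 20.4, 11.5 and 18.8 CPM with DMSO and 57.6, 87.4 and 94.9 CPM with 4OHT, with no overlap. The fold change was 4.43 (log2 2.15, SE 0.32, adjusted p = 9.6e-05). TNFAIP3 encodes A20, a ubiquitin-editing enzyme that shuts off the signal downstream of TNF and interleukin-1 receptors. It had 15.7, 12.52 and 13.5 CPM with DMSO and 41.02, 52.1 and 79.4 CPM with 4OHT. Every 4OHT library was above every DMSO library, and the fold change was 3.90 (log2 1.96, SE 0.30, adjusted p = 9.8e-05).

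NFKBIA had 80.0, 81.8 and 74.5 CPM with DMSO and 237, 119 and 112 CPM with 4OHT. The groups did not overlap, but replicate 1 of the 4OHT group stood well above the other senescent libraries. The log2 fold change of 0.89 (SE 0.28, adjusted p = 0.0197) was called, and it fell to 0.51 (adjusted p = 0.136) without that library. The call was also lost, at a nearly equal value, without replicate 1 (0.95, adjusted p = 0.0537) or replicate 3 (0.92, adjusted p = 0.0530) of the DMSO group. TNFAIP2, a gene named for its induction by TNF, had 27.3, 35.4 and 20.4 CPM with DMSO and 77.4, 61.3 and 48.9 CPM with 4OHT. The groups did not overlap (log2 fold change 1.08, SE 0.26, adjusted p = 0.00449).

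BIRC3 encodes cIAP2, a ubiquitin ligase of the TNF receptor complex that protects cells from death. It had the largest estimate of the 10 genes in OIS, with 4.48, 0.934 and 10.2 CPM with DMSO and 7.32, 24.9 and 56.0 CPM with 4OHT. The groups overlapped, and the log2 fold change of 2.41 had an SE of 1.23 (adjusted p = 0.147). BIRC3 and REL also differed by replicate number. In each of the 6 ER:RAS groups, replicate 3 had the highest level of the group for both genes. Their transcripts are the longest and the richest in A and T of the 10 (REL 38.4% G+C over 11108 bases, BIRC3 35.8% over 6877 bases). Over the 2403 genes under 40% G+C, the median deviation from the group mean (log2) of replicate 3 was 0.59 to 1.02 in ER:RAS groups and 0.32 to 0.54 in IMR90 groups. For replicates 1 and 2 of ER:RAS it ran from -0.96 to 0.25, and its part in the levels of both genes was not tested. NFKB2, RELA and NFKBIA, with 53.0% to 61.2% G+C, were lowest in replicate 3 in all 6 ER:RAS groups.

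When the libraries were corrected for G+C content and length, an alternative chosen after seeing the data, BIRC3 was called in OIS with the control shRNA (log2 fold change 2.52, SE 0.40, adjusted p = 6.8e-05), with COPB2 shRNA 1 (2.85, adjusted p = 2.7e-05) and with COPB2 shRNA 2 (2.60, adjusted p = 8.2e-05). The correction called 55.3%, 57.6% and 57.3% of all genes in these comparisons, against 35.7%, 36.9% and 36.9% without it. Without replicate 3 of every group, also chosen after seeing the data, the BIRC3 values were 2.56 (adjusted p = 0.0192), 3.68 (0.00497) and 3.54 (0.00636). The shares of all genes called were then 39.4%, 38.1% and 38.3%. REL was not called by either route, and with the control shRNA its value turned from 0.96 to -0.16 without replicate 3.

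**Figure D2:**
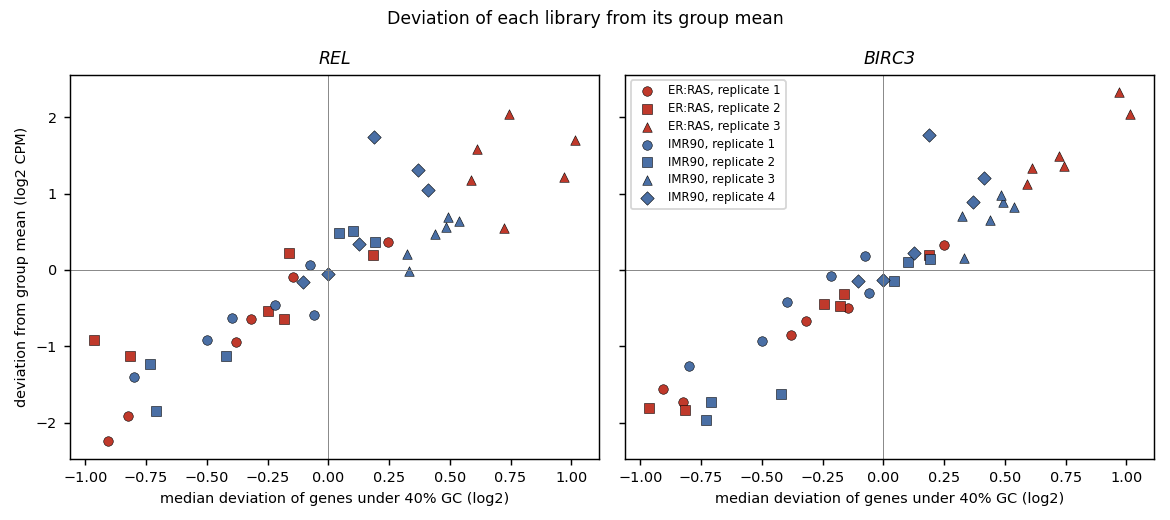
Deviation of REL (left) and BIRC3 (right) from their group mean (log2 CPM) in each of the 42 libraries, against the median deviation of genes under 40% G+C in the same library (log2). Colour gives the cell line and the marker the replicate number. Replicate 3 of ER:RAS (red triangles) lies at the upper right, with low-G+C deviations of 0.59 to 1.02, and the points share library, depth and base composition.

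The NF-κB response to 4OHT was also present in cells with COPB2 shRNAs. With COPB2 shRNA 1, 5 of the 10 genes were called, all higher, against 36.9% of all genes called and 15.4% called higher, and the libraries of 6 genes did not overlap, against 46.9%. With COPB2 shRNA 2, 5 were called, all higher, against 36.9% called and 14.9% called higher, and 7 did not overlap, against 46.5%. The 5 genes were NFKBIZ, TNFAIP3, RELB, NFKB2 and TNFAIP2 in both. RELB had 36.3, 43.95 and 28.1 CPM with DMSO and 103, 119.8 and 98.5 CPM with 4OHT for shRNA 1 (log2 fold change 1.47, SE 0.24, adjusted p = 0.000160). For shRNA 2 it had 48.2, 47.4 and 28.6 CPM with DMSO and 98.0, 123 and 90.9 CPM with 4OHT (1.23, SE 0.24, adjusted p = 0.000706). The RELB groups did not overlap with either shRNA.

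For NFKBIZ, the libraries with 4OHT held 103, 73.4 and 80.5 CPM with shRNA 1 and 103, 77.0 and 90.9 CPM with shRNA 2, against 14.5 to 29.4 and 15.5 to 25.3 CPM with DMSO. The groups did not overlap, and the log2 fold change was 1.91 with shRNA 1 (SE 0.32, adjusted p = 0.000231) and 2.03 with shRNA 2 (SE 0.32, adjusted p = 0.000145). TNFAIP3 reached 49.9, 39.7 and 51.3 CPM with shRNA 1 and 41.7, 34.6 and 44.6 CPM with shRNA 2, a log2 fold change of 1.65 for the former (SE 0.29, adjusted p = 0.000395) and of 1.22 for the latter (SE 0.29, adjusted p = 0.00378). Over all 3 shRNAs, the 9 senescent libraries ranged from 34.6 to 79.4 CPM and the 9 controls from 10.2 to 19.2 CPM. NFKB2 (0.96 and 0.95) and TNFAIP2 (1.21 and 0.79) kept smaller called changes. The NFKB2 calls were lost without 4OHT replicate 2 (0.81, adjusted p = 0.0786 and 0.82, adjusted p = 0.0742) or DMSO replicate 3 (0.84, adjusted p = 0.0682 and 0.83, adjusted p = 0.0690) of the respective shRNA. The TNFAIP2 call with shRNA 2 was lost without DMSO replicate 1 (0.90) or 3 (0.66) and without 4OHT replicate 1 (0.74) or 2 (0.72).

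NFKBIA was not called in OIS with shRNA 1 (0.46, SE 0.27, adjusted p = 0.214) or shRNA 2 (0.33, SE 0.27, adjusted p = 0.381). Its 4OHT libraries had 129, 110.4 and 75.8 CPM with shRNA 1 and 135, 112 and 81.5 CPM with shRNA 2, and replicate 3 of each overlapped the DMSO libraries. After correction for G+C content and length NFKBIA was called with both (0.49, adjusted p = 0.00469 and 0.46, adjusted p = 0.00699), as were 57.6% and 57.3% of all genes. BIRC3 did not overlap between the groups with either COPB2 shRNA, with 8.77, 11.4 and 40.1 CPM against 0.363 to 8.38 CPM for shRNA 1 and 9.94, 11.6 and 34.6 CPM against 0.409 to 6.99 CPM for shRNA 2. Its log2 fold changes of 2.52 and 2.60 had SEs of 1.24 and 1.25 and missed the threshold (adjusted p = 0.129 and 0.120). Without DMSO replicate 3 of the respective shRNA they were called, at 4.74 (adjusted p = 0.0199) and 4.43 (adjusted p = 0.0318). These fits kept 4OHT replicate 3, the highest library of its group. Without replicate 3 of every group the values were 3.68 (adjusted p = 0.00497) and 3.54 (adjusted p = 0.00636). NFKB1 was lower in all 3 libraries with 4OHT and shRNA 2 (41.9 to 46.6 CPM) than with DMSO (54.0 to 63.9 CPM), and its log2 fold change of -0.45 had an adjusted p = 0.0506.

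**Figure D3:**
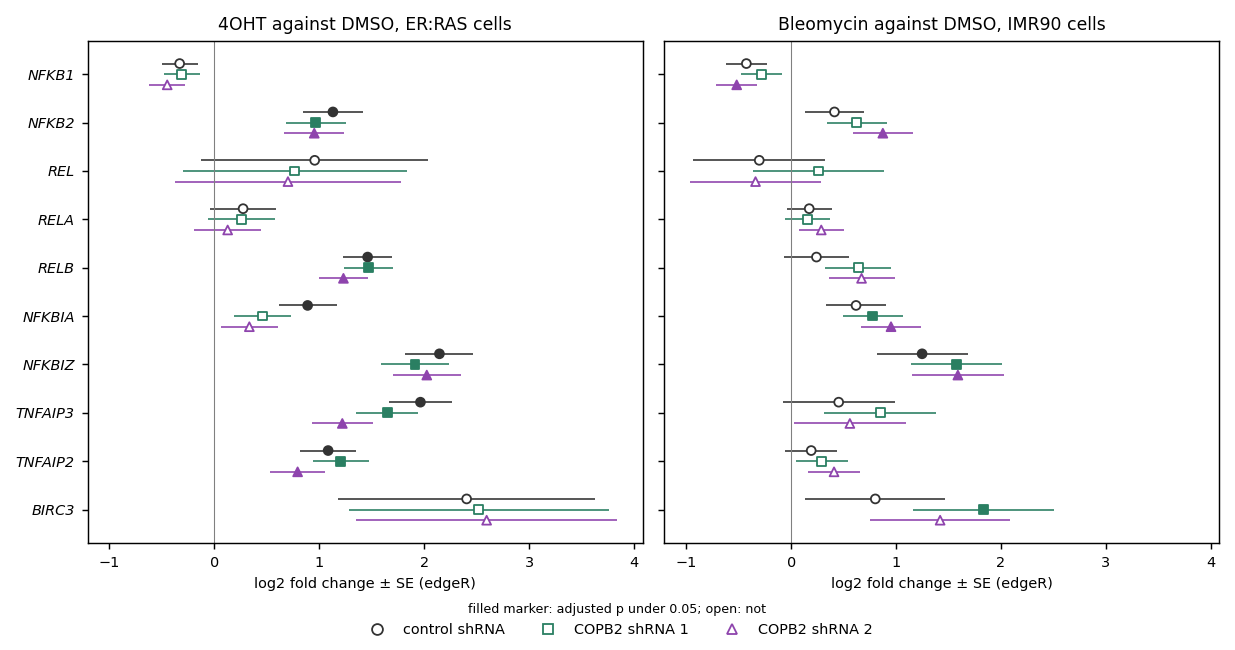
Log2 fold change with its standard error (SE, bars) of the 10 NF-κB genes in ER:RAS cells (4OHT against DMSO, left) and IMR90 cells (bleomycin against DMSO, right), for the control shRNA and both COPB2 shRNAs. Filled markers passed an adjusted p of 0.05 in edgeR. RELB, NFKBIZ, TNFAIP3, NFKB2 and TNFAIP2 are filled for all 3 shRNAs on the left, and NFKBIZ for all 3 on the right.

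In bleomycin-induced senescence with the control shRNA, NFKBIZ was the only one of the 10 genes called, against 31.2% of 14783 genes tested, of which 15.4% were called higher. The libraries did not overlap for 2 of the genes, NFKBIZ (higher) and NFKB1 (lower), against 27.4% of all genes. The median log2 fold change of the 10 genes was 0.33, and that of all genes was -0.01. Without replicate 4 of the bleomycin groups, 2 of the genes were called, 1 in each direction, against 31% of 14843 genes, and their median was 0.25. NFKBIZ had 21.6, 24.4, 24.9 and 27.8 CPM with DMSO and 45.8, 41.2, 40.4 and 102 CPM with bleomycin. The first 3 bleomycin libraries were close together and replicate 4 was well above them. The log2 fold change was 1.25 (SE 0.43, adjusted p = 0.0320) with replicate 4. It was 0.83 (SE 0.23, adjusted p = 0.00861) when replicate 4 of all 3 bleomycin groups was left out. Leaving out replicate 4 of this group alone gave 0.83 with adjusted p = 0.150. The call was also lost without any 1 of the 4 DMSO libraries (1.21 to 1.31, adjusted p = 0.0539 to 0.0604).

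NFKB1 was lower in every bleomycin library (40.7, 55.6, 36.4 and 54.3 CPM) than in every DMSO library (63.6, 66.0, 62.3 and 62.9 CPM). Its log2 fold change was -0.43 (SE 0.20, adjusted p = 0.105) with all libraries and -0.48 (SE 0.16, adjusted p = 0.0257) without replicate 4. TNFAIP3 had 18.5, 17.9, 18.9 and 18.3 CPM with DMSO and 19.8, 17.7, 11.6 and 49.6 CPM with bleomycin. Replicate 4 was far above the controls, replicate 1 just above them, replicate 2 just below and replicate 3 well below. The log2 fold change of 0.45 (SE 0.53, adjusted p = 0.573) turned to -0.12 (SE 0.24, adjusted p = 0.755) without replicate 4. NFKBIA had 75.9, 46.5, 56.0 and 40.6 CPM with DMSO and 85.3, 91.7, 59.8 and 94.5 CPM with bleomycin, and only bleomycin replicate 3 was within the DMSO range. Its log2 fold change was 0.62 (SE 0.28, adjusted p = 0.107), 0.58 (adjusted p = 0.0771) without replicate 4, and 0.85 (adjusted p = 0.0350) without DMSO replicate 1, its highest control.

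The other 6 genes overlapped between bleomycin and DMSO with the control shRNA and were not called with or without replicate 4. RELB had 41.7, 20.5, 27.4 and 24.9 CPM with DMSO and 36.4, 37.4, 21.5 and 38.2 CPM with bleomycin (log2 fold change 0.24, SE 0.31, and 0.20 without replicate 4). NFKB2 had 72.1, 45.9, 46.3 and 45.2 CPM against 66.1, 75.8, 44.7 and 88.7 CPM (0.41, SE 0.28, and 0.30 without replicate 4). For both, DMSO replicate 1 and bleomycin replicate 3 were the libraries that brought the groups together. RELA (0.17, and 0.29 without), TNFAIP2 (0.19, and 0.10 without), BIRC3 (0.80, and 0.53 without) and REL (-0.31, and -0.84 without) had adjusted p-values between 0.402 and 0.767 with all libraries and between 0.274 and 0.798 without replicate 4.

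In IMR90 cells with COPB2 shRNA 1, bleomycin raised 3 of the 10 genes, BIRC3, NFKBIZ and NFKBIA, against 35.2% of all genes called and 17.4% called higher. NFKBIZ did not overlap between the groups, the only one of the 10, against 35.3% of all genes. NFKBIZ had 19.2, 26.5, 28.9 and 24.998 CPM with DMSO and 42.7, 46.5, 36.5 and 162 CPM with bleomycin. Its log2 fold change of 1.57 (SE 0.44, adjusted p = 0.00716) became 0.80 (SE 0.23, adjusted p = 0.0106) when replicate 4 was dropped from all 3 bleomycin groups. Without replicate 4 of this group alone it was 0.79 (adjusted p = 0.0920). BIRC3 (1.83, adjusted p = 0.0386) and NFKBIA (0.78, adjusted p = 0.0380) had their highest level in replicate 4, at 30.4 and 139 CPM against 2.80 to 9.82 and 50.5 to 71.3 CPM in the other bleomycin libraries. Neither was called without replicate 4 of the 3 groups, against 32.7% of all genes then called (0.89, adjusted p = 0.299 and 0.38, adjusted p = 0.261). BIRC3 was also not called without replicates 1, 2 or 4 of the DMSO group (1.57, 1.79 and 1.73), nor NFKBIA without replicates 2, 3 or 4 (0.69, 0.76 and 0.74). NFKB1 was called only without replicate 4 (-0.55, SE 0.16, adjusted p = 0.0109, against -0.28, adjusted p = 0.290, with it).

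With COPB2 shRNA 2, 4 genes were called with bleomycin, against 40% of all genes. NFKBIZ, NFKBIA and NFKB2 rose, against 21.7% of all genes, and NFKB1 fell, against 18.3%. The libraries of NFKB2 (higher) and NFKB1 (lower) did not overlap, 2 of the 10, against 30.7%. The same 4 genes were called without replicate 4, against 40.2% of all genes. NFKBIZ had 57.8, 26.02, 67.9 and 126 CPM with bleomycin and 20.5, 26.6, 22.3 and 25.9 CPM with DMSO. Replicate 2 lay within the DMSO range, and the log2 fold change of 1.59 (SE 0.44, adjusted p = 0.00618) became 1.14 (SE 0.23, adjusted p = 0.000625) without replicate 4. NFKB2 (0.87, adjusted p = 0.0185) had 89.3, 91.4, 63.0 and 110.1 CPM, all above the highest DMSO library at 59.5 CPM, and its value was 0.77 (adjusted p = 0.0159) without replicate 4. NFKBIA was at 0.95 (adjusted p = 0.0110), and 0.77 (adjusted p = 0.0152) without. NFKB1 fell to 39.8, 33.8, 37.3 and 52.6 CPM from 56.6 to 66.1 CPM (log2 fold change -0.52, SE 0.20, adjusted p = 0.0389), and was at -0.65 (adjusted p = 0.00304) without replicate 4. The NFKB1 call was lost without 1 of 6 libraries in turn: replicates 1, 2 or 4 of the DMSO group, or replicates 1, 2 or 3 of the bleomycin group (adjusted p = 0.0549 to 0.119).

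Replicate 4 exceeded the other 3 libraries of its group for 8 of the 10 genes with bleomycin and the control shRNA, for 9 with COPB2 shRNA 1 and for 8 with COPB2 shRNA 2. With DMSO it did so for 1, 1 and 0 genes. The share of all genes for which replicate 4 was the highest library was not computed, so these counts do not set the 10 genes apart from other genes. Its level relative to the median of the other 3 libraries had a median over the 10 genes of 1.34-fold, 2.37-fold and 1.49-fold in the bleomycin groups, and reached 2.81-fold, 5.25-fold and 3.05-fold. TNFAIP3 showed the pattern in each bleomycin group, with 71.1 CPM in replicate 4 against 10.0 to 15.4 CPM for shRNA 1 and 52.6 against 7.97 to 19.1 CPM for shRNA 2. Its log2 fold changes of 0.85 and 0.56, neither called, turned to -0.22 and -0.15 without replicate 4. The median deviation of genes under 40% G+C in these 3 libraries was 0.19 to 0.41, and its part in these levels was not tested.

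**Figure D4:**
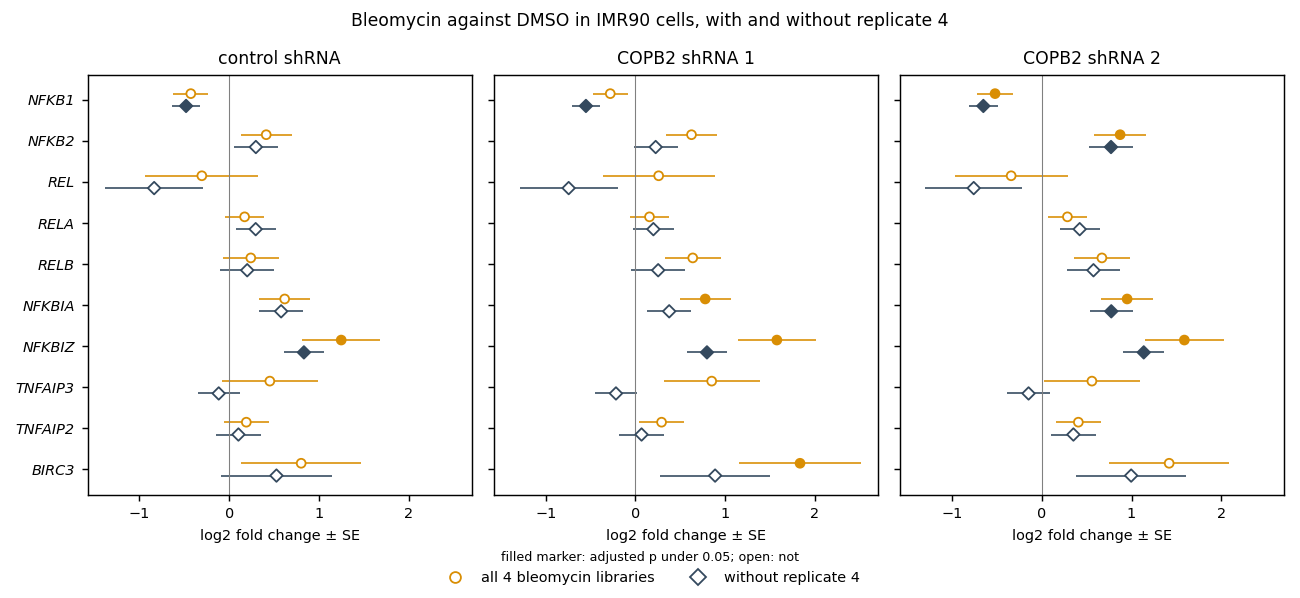
Log2 fold change with its SE (bars) of the 10 NF-κB genes in IMR90 cells, bleomycin against DMSO, for each shRNA, with all 4 bleomycin libraries (circles) and without replicate 4 (diamonds). Filled markers passed an adjusted p of 0.05. NFKBIZ is filled in all 6 fits, and TNFAIP3 moves from the right of 0 to the left of it when replicate 4 is left out.

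The response of both models was compared in 1 fit, as the 4OHT effect minus the bleomycin effect with the control shRNA. All 10 differences were positive, with a median of 0.97 against -0.03 for all genes. RELB was the only gene of the 10 called (log2 difference 1.30, SE 0.44, adjusted p = 0.0314), against 20.3% of 15299 genes tested and 8.14% called higher. TNFAIP2 (0.97, SE 0.38, adjusted p = 0.0725), TNFAIP3 (1.57, SE 0.68, adjusted p = 0.104), NFKBIZ (0.96, SE 0.57, adjusted p = 0.263) and NFKB2 (0.80, SE 0.44, adjusted p = 0.221) were not called. Without replicate 4 of the bleomycin groups, 4 were called, all higher, against 19.5% of 15205 genes, with 1280 genes called higher. They were TNFAIP3 (2.204, SE 0.35, adjusted p = 2.1e-05), NFKBIZ (1.44, SE 0.38, adjusted p = 0.00561), RELB (1.40, SE 0.41, adjusted p = 0.0130) and TNFAIP2 (1.12, SE 0.38, adjusted p = 0.0338). The RELB call was lost, at values of 1.04 to 1.23, when 1 library was left out: replicate 1 or 3 of ER:RAS with DMSO, replicate 1 with 4OHT, replicate 1 of IMR90 with DMSO, or replicate 3 with bleomycin. The models differ in cell line, stimulus and number of libraries, and these cannot be told apart.

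Within each library, the ratio of subunit transcripts per kilobase does not depend on how libraries were scaled against each other, and is given as a description with no test. The ratio of RELB to RELA was 0.257 to 0.508 in the 9 ER:RAS DMSO libraries and 0.576 to 0.922 in the 9 with 4OHT, without overlap. In IMR90 it was 0.200 to 0.391 with DMSO and 0.236 to 0.645 with bleomycin, or at most 0.322 without replicate 4. RELA transcripts thus outnumbered RELB transcripts in all 42 libraries. The ratio of NFKB2 to NFKB1 was 1.38 to 2.06 in ER:RAS DMSO libraries and 2.87 to 7.90 with 4OHT. In IMR90 it was 0.913 to 1.57 with DMSO and 1.60 to 3.64 with bleomycin. The senescent and control libraries did not overlap in either model, but the IMR90 gap was narrow. It lay between DMSO replicate 1 and bleomycin replicate 3, both with COPB2 shRNA 1. NFKB2 transcripts have 61.2% G+C and NFKB1 transcripts 50.1%, and the part of base composition in the spread of this ratio was not tested. For neither ratio was the share of other gene pairs without overlap computed.

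The COPB2 shRNAs were compared with the control shRNA within each state, to ask whether loss of COPB2 changed NF-κB transcripts. Both are guides of 22 bases, shown here because all knockdown values rest on them.
COPB2 shRNA 1 (COPB2.1): ttaaatatctttacaatgctgt
COPB2 shRNA 2 (COPB2.2): taattgaacactctaatctgca
Their sites lie at bases 1323 to 1344 and 333 to 354 of the 3275-base COPB2 transcript, and 0 of the 10 NF-κB transcripts held either site in full. COPB2 ran from 262 to 629 CPM in the 14 control shRNA libraries and from 32.996 to 123 CPM in the 28 COPB2 shRNA libraries, without overlap.

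No NF-κB gene was called in any of the 8 knockdown comparisons. Of the 80 values, 1 had an unadjusted p under 0.05 in edgeR, and log2 fold changes ran from -0.86 to 0.78 with a lowest adjusted p of 0.830. Calls were also rare among all genes. They made up 0.00699% with each shRNA in ER:RAS cells with DMSO, 0.14% (shRNA 1) and 0.224% (shRNA 2) with 4OHT, 0.00676% with each shRNA in IMR90 cells with DMSO, and 0.00676% and 0.0744% with bleomycin. The 1 value was NFKBIA with 4OHT and shRNA 1, at 129, 110.4 and 75.8 CPM against 237, 119 and 112 CPM with the control shRNA (log2 fold change -0.59, SE 0.27, edgeR adjusted p = 1.00). With shRNA 2 the NFKBIA value was -0.54 (SE 0.27). Both values share the control libraries, of which replicate 1 was the highest of all. TNFAIP3 with 4OHT was at -0.32 with shRNA 1 and -0.55 with shRNA 2, with libraries that overlapped. The SEs ran from 0.17 to 1.20, so that changes of the size of those for BIRC3 (-0.86 to 0.78 over the 8 comparisons) could not be separated from 0.

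The libraries of the COPB2 and control shRNAs did not overlap for 1 of the 10 genes in 1 of the 8 comparisons, TNFAIP3 in IMR90 cells with DMSO and shRNA 1, against 1.71% of all genes there (15.3 to 16.9 CPM against 17.9 to 18.9 CPM, log2 fold change -0.21). In the other 7 comparisons 0 of the 10 genes were without overlap, against 4.05% (shRNA 1) and 3.15% (shRNA 2) of all genes in ER:RAS cells with DMSO, 6.52% and 7.84% with 4OHT, 1.63% (shRNA 2) in IMR90 cells with DMSO, and 0.961% and 1.68% with bleomycin. The interaction of knockdown with senescence was called for none of the 10 genes with either shRNA in either model (edgeR, lowest adjusted p = 1.00, 0 values at an unadjusted p under 0.05). It was called for 0 of 14297 genes in ER:RAS and 0 of 14783 genes in IMR90 cells. The interaction estimates ran from -0.74 to 0.19 with ER:RAS cells and from -0.09 to 1.03 with IMR90 cells. Without replicate 4 of the bleomycin groups, 0 of the 10 genes were called or had an unadjusted p under 0.05 (edgeR) in the knockdown and interaction comparisons of senescent IMR90 cells. The knockdown values then ran from -0.37 to 0.12 with shRNA 1 and from -0.24 to 0.41 with shRNA 2, and the interaction values from -0.20 to 0.36 and from -0.17 to 0.48. A p that misses the threshold does not show that the groups were alike.

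**Figure D5:**
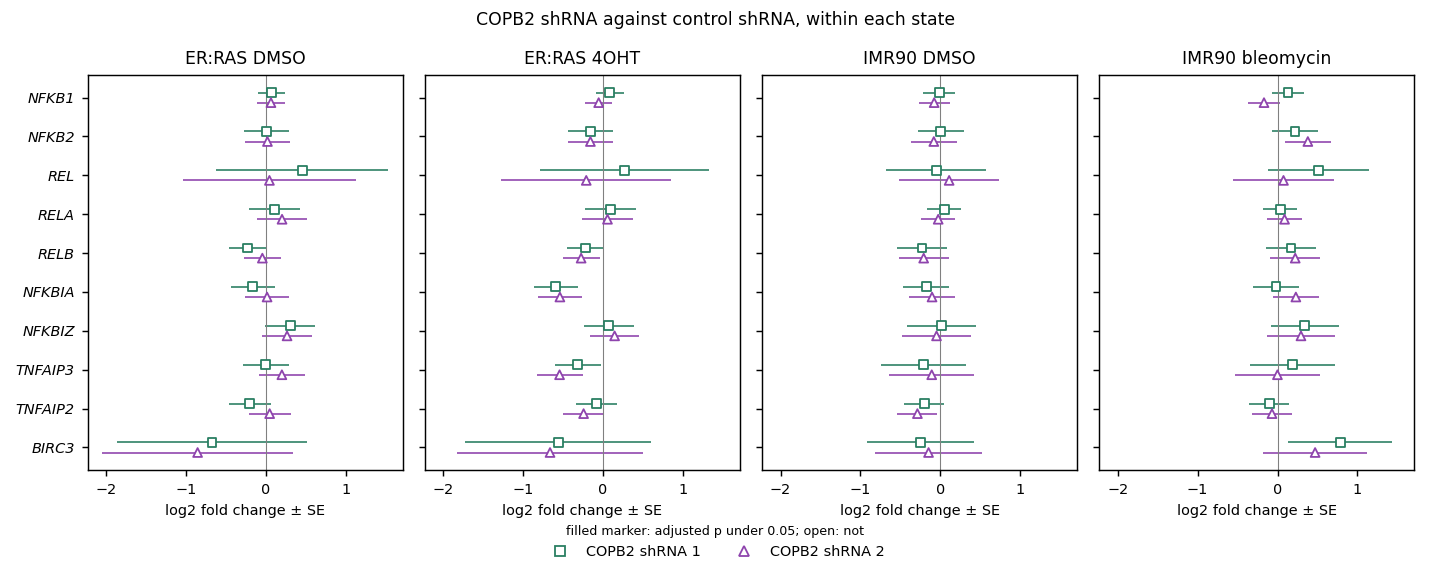
Log2 fold change with its SE (bars) of the 10 NF-κB genes for COPB2 shRNA 1 (squares) and COPB2 shRNA 2 (triangles), each relative to control shRNA cells of the same state, with 1 panel per state. All markers are open, since none passed an adjusted p of 0.05. The bars of REL and BIRC3 are the widest in every state.

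ER:RAS and IMR90 cells in which senescence was not induced were compared with DMSO and the control shRNA, both collected on day 10 like the senescent cells. None of the 10 genes was called (edgeR, lowest adjusted p = 0.459, 0 at an unadjusted p under 0.05), against 0.346% of 15299 genes tested. The libraries of 3 genes did not overlap, against 13.3% of all genes. They were NFKB1 (log2 difference -0.21), NFKBIZ (-0.53) and TNFAIP3 (-0.38), all lower in ER:RAS cells. RELB (0.57), NFKBIA (0.54) and NFKB2 (0.49) were the largest positive estimates, with SEs of 0.31, 0.30 and 0.31.

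Other genes of the pathway were read from lists of upstream components and targets, with the control shRNA. Their counts stand against 35.7% of all genes called in OIS, 31.2% called with bleomycin and 31% with bleomycin without replicate 4 of the bleomycin groups. Among other IκB genes, 3 of 4 were called in OIS (2 higher, 1 lower) and 3 of 4 with bleomycin (2 higher, 1 lower), or 2 of 4, both higher, without replicate 4. NFKBIE, an inhibitor in the cytoplasm, rose by 1.03 on the log2 scale in OIS (SE 0.32, adjusted p = 0.0185), and BCL3, a nuclear cofactor of the NFKB1 and NFKB2 products, fell by 0.99 (SE 0.28, adjusted p = 0.0126). With bleomycin, NFKBIB rose by 0.54 (SE 0.17, adjusted p = 0.0176), and by 0.60 without replicate 4. Among 10 genes that restrain the pathway, 3 were called in OIS and 1 with bleomycin, with or without replicate 4, all of them higher. The shares of all genes called higher were 15.5% in OIS and 15.4% with bleomycin, or 16.2% without replicate 4. ZC3H12A, which encodes an RNase that degrades cytokine mRNAs, rose from 10.8 ± 2.99 to 266 ± 62.9 CPM (SD, n = 3) in OIS (log2 fold change 4.53, adjusted p = 6.8e-08) and from 9.70 ± 2.73 to 31.3 ± 16.9 CPM (SD, n = 4) with bleomycin (1.72, adjusted p = 0.0376 by edgeR, and 1.34 without replicate 4). TNIP1, a partner of A20, rose in OIS (2.41, SE 0.38, adjusted p = 0.000124).

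Among 26 kinases and adaptors upstream, 6 were called in OIS (4 higher, 2 lower) and 4 with bleomycin (1 higher, 3 lower), or 3 without replicate 4 (1 higher, 2 lower). All these shares were below those of all genes called. IRAK2, an adaptor kinase of interleukin-1 and Toll-like receptors, rose by 2.65 in OIS and by 2.19 with bleomycin, with or without replicate 4. MAP3K14, the kinase that starts NFKB2 processing, fell by 2.07 and by 1.15 on the log2 scale, and TRAF5 fell by 1.54 and by 1.65 (without replicate 4, MAP3K14 fell by 1.14 and TRAF5 by 1.76 with bleomycin). TRAF1 rose by 1.83 in OIS. Of 13 receptors, 10 were tested, of which 8 were called in OIS (5 higher, 3 lower) and 4 with bleomycin (2 higher, 2 lower), with or without replicate 4, the latter near the share of all genes. TLR2 rose by 3.94 and IL1R1 fell by 2.04 in OIS, TNFRSF12A rose by 2.11 in OIS and by 1.22 with bleomycin, and NOD1 fell by 2.18 and by 1.96. IL1RAP, a subunit of the interleukin-1 receptor, rose by 1.11 with bleomycin. Without replicate 4 the bleomycin values were 1.34 for TNFRSF12A, -1.94 for NOD1 and 1.07 for IL1RAP. The 4 receptors called with bleomycin were not the same with and without replicate 4. TLR2 fell with bleomycin from a mean of 0.639 to 0.283 CPM (-1.11, edgeR adjusted p = 0.0233), but was not called without replicate 4 (-0.94, adjusted p = 0.0590). IL1R1 was called lower only without replicate 4 (-1.54, adjusted p = 0.000435, against -0.79, adjusted p = 0.354, with it).

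Of 11 ligands, 5 were tested, of which 4 were called in OIS (3 higher, 1 lower) and 3 with bleomycin (2 higher, 1 lower), or 2, both higher, without replicate 4. Their median log2 fold change with bleomycin was 2.53, and 0.79 without replicate 4. IL1B went from 0.893 ± 0.0823 to 8216 ± 1648 CPM in OIS (SD, n = 3), and from 0.731 ± 0.119 to 31.9 ± 36.7 CPM with bleomycin (SD, n = 4). Its bleomycin libraries held 22.1, 9.79, 9.39 and 86.3 CPM, and its log2 fold change of 5.47 became 4.28 without replicate 4. IL1A reached 264 ± 135 CPM and IL33 7.88 ± 6.44 CPM in OIS, from means of 0.148 and 0.568 CPM, while TNFSF12 fell by 1.21. Of 21 target genes, 20 were tested. In OIS 14 were called (12 higher, 2 lower), against 15.5% of all genes called higher, and 8 with bleomycin, all higher, against 15.4%. CXCL8 went from 8.32 ± 6.76 to 7044 ± 3774 CPM in OIS (SD, n = 3) and from 1.51 ± 0.494 to 320.4 ± 527 CPM with bleomycin (SD, n = 4). The bleomycin libraries of CXCL8 held 94.8, 38.5, 38.4 and 1110.1 CPM, so that replicate 4 carried the mean, and the log2 fold change of 7.77 became 5.31 without it. CXCL3, CXCL1 and PTGS2 had log2 fold changes of 6.79, 6.41 and 5.13 with bleomycin, which became 3.25, 3.24 and 2.67 without replicate 4. CSF2 reached 471 CPM in OIS with at most 2 counts in a DMSO library, as did CCL20 with 43.1 CPM. The median log2 fold change of the 20 targets was 3.46 in OIS and 1.84 with bleomycin, and 1.23 without replicate 4, when 11 were called (10 higher, 1 lower), against 16.2% of all genes called higher and 14.8% called lower.

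The genes whose group means were most like those of each NF-κB gene over the 12 groups were found by Pearson's r among 10488 candidates, as a description that rests on 12 means and on the contrast between senescent and control groups. RELB was most like PLIN3, ETV4 and IRAK1 (r = 0.996 each). NFKB2 was most like TMEM53 (r = 0.997), TNFAIP2 like TBC1D10B (r = 0.994), NFKBIZ like CYP51A1 and NFKBIA like GAMT (r = 0.991 each). TNFAIP3 was most like MEAF6 (r = 0.989) and NFKB1 like KDM5B (r = 0.986). The closest genes of REL (YOD1, r = 0.972) and BIRC3 (CCT8, r = 0.984) were found with the least precise group means.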

How the data were processed

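The authors deposited 1 table of raw read counts per gene symbol for 42 poly(A) RNA-seq libraries. Per the labels, STAR 2.7.8a, DRAGEN, DESeq2 1.32.0 and the hg38 build were used in the submitters' processing, while the study's methods name an earlier aligner and build. Of the 28266 symbols, 95.5% were found in RefSeq GRCh38.p14, which gave positions and promoter windows. Base composition and transcript length came from GENCODE.

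Counts were tested with edgeR 4.0.16 (quasi-likelihood F-test, robust, two-sided, filterByExpr, TMM) in R 4.3.3, on 18 ER:RAS libraries, 24 IMR90 libraries or, between models, all 42. P-values were adjusted over all genes tested (Benjamini-Hochberg, threshold 0.05). SEs were derived from the F statistic. CPM values were scaled by TMM over all 42 libraries, so their ratios differ slightly from fitted fold changes. The fit was tested on simulated data. DESeq2 1.42.0, other filters and scalings, a replicate block and left-out libraries were alternatives. All 10 genes are named, and from each pathway list up to 4 called genes with the largest change and no overlap, where the group with more counts averaged 100 or over. The genes and lists were chosen with earlier results of these data known. The level of 1 marker gene is not reported here. Replicate numbers were checked for pairing. Same-numbered deviations correlated in every pair of replicate 3 (r at least 0.57 in ER:RAS, 0.39 in IMR90) and of IMR90 replicate 1 (at least 0.18), but the lowest r was -0.61 and -0.32 for ER:RAS replicates 1 and 2, and -0.50 and -0.083 for IMR90 replicates 2 and 4. The median r was 0.46, 0.52 and 0.79 for ER:RAS replicates 1, 2 and 3, and 0.37, -0.21, 0.56 and 0.14 for IMR90 replicates 1 to 4. Most medians were thus positive, but the labels do not tie a number to a shared culture. The numbers were not treated as pairs in the main fits, and the replicate block is given as an alternative.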

Additional observations from a re-analysis of the deposited data

Results flagged for a closer look

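RELB was called between the models: its log2 change with 4OHT exceeded that with bleomycin by 1.30 in the fit over all 42 libraries (edgeR, adjusted p = 0.0314). Of all genes, 20.3% were called in this comparison. The RELB call was lost when some single libraries were left out (1.04 to 1.23) and without replicate 3 of every group (1.26). Cell line and stimulus cannot be told apart here.

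Of 60 sets of 4 libraries (10 genes in 6 IMR90 groups), 8 had a library that stood apart by Dixon's test. Chance alone gives this in about 1 of 20 independent sets. The 10 genes were read from the same libraries, so the sets are not independent and 8 of 60 cannot be weighed against that rate. The share over all genes was not computed. In IMR90 with DMSO these were NFKB2 in replicate 1 with the control shRNA (72.1 CPM) and with COPB2 shRNA 2 (59.5 CPM), REL in replicate 1 with the control shRNA (1.40 CPM), RELB in replicate 1 with COPB2 shRNA 1 (36.1 CPM) and TNFAIP2 in replicate 1 with the control shRNA (25.1 CPM). With bleomycin they were RELB in replicate 3 with the control shRNA (21.5 CPM) and NFKBIZ in replicate 4 with the control shRNA (102 CPM) and with COPB2 shRNA 1 (162 CPM). All 5 sets with DMSO were replicate 1. In the 3 DMSO groups, replicate 1 was the highest library for NFKB2, RELA, RELB, NFKBIA and TNFAIP2 and the lowest for REL, NFKBIZ and BIRC3. The median deviation of genes under 40% G+C was -0.80 to -0.40 in these 3 libraries and -0.10 to 0.49 in the other DMSO libraries, and its part in the levels was not tested.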

How the results depend on the processing

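Among the 10 genes, the replicate block gave 2 calls with bleomycin and the control shRNA and 5 with COPB2 shRNA 1. In the difference between models it gave 4. The block called 40.9%, 44.9% and 29.2% of all genes there, against 31.2%, 35.2% and 20.3% without it. In OIS it called 50.9% (control shRNA), 53.2% (shRNA 1) and 53.1% (shRNA 2) of all genes. It turned REL with bleomycin and COPB2 shRNA 1 to -0.011. The labels do not say that a number marks a shared culture, and not every same-numbered pair deviated together. In OIS it also called BIRC3 with the control shRNA (2.39, adjusted p = 0.00346), COPB2 shRNA 1 (2.91, adjusted p = 0.000866) and COPB2 shRNA 2 (2.98, adjusted p = 0.000840), NFKBIA with shRNA 1 (0.44, adjusted p = 0.0462) and NFKB1 with shRNA 2 (-0.45, adjusted p = 0.0241). With bleomycin it called NFKB1 with the control shRNA, NFKB2 and RELB with shRNA 1 and RELB with shRNA 2, and in the difference between models NFKBIZ, TNFAIP2 and TNFAIP3.

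The correction for G+C content and length gave 2, 5 and 4 calls in the same 3 comparisons, against 46.2%, 50.4% and 36.2% of all genes. Without replicate 3 of every group there were 0 calls with bleomycin and the control shRNA, against 21.9% of all genes. There were also 0 in the difference between models, against 17.8%. REL turned to -0.16 in OIS and to -0.053 in that difference, where NFKB1 turned to -0.10. Without replicate 4 of the bleomycin groups there were 2 and 4 calls in these comparisons, against 31% and 19.5% of all genes. TNFAIP3 then turned to -0.12, -0.22 and -0.15 with the control shRNA, shRNA 1 and shRNA 2, and REL with shRNA 1 to -0.74. Without a filter on low counts there were 0 calls with bleomycin and the control shRNA, against 21.9% of all genes. With only the libraries compared, 3 remained in OIS with the control shRNA, where the fit had fewer samples and called 21.6% of all genes. A minimum absolute log2 fold change of 1 left 3 in OIS and 1 with bleomycin, both with COPB2 shRNA 2. DESeq2's Wald test gave 2 in the difference between models, against 22.7% of all genes. The causes were not tested.

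Leaving out 1 library at a time gave 5 to 6 calls in OIS with the control shRNA, 4 to 5 with shRNA 1 and 3 to 5 with shRNA 2. With bleomycin it gave 0 to 1, 1 to 4 and 3 to 4, and in the difference between models 0 to 2. Log2 values that changed sign in 1 of these fits had ranges, over the libraries left out, of -0.51 to 1.51 (control shRNA), -0.54 to 1.69 (shRNA 1) and -0.20 to 1.96 (shRNA 2) for REL in OIS, of -0.047 to 0.29 for RELA in OIS with shRNA 2, of -0.84 to 0.033 (control shRNA) and -0.75 to 0.53 (shRNA 1) for REL with bleomycin, and of -0.12 to 0.68, -0.22 to 1.13 and -0.15 to 0.86 for TNFAIP3 with bleomycin. In the difference between models the ranges were -0.16 to 1.83 for REL, -0.088 to 0.60 for RELA and -0.092 to 0.56 for NFKBIA. No knockdown or interaction comparison gained a call among the 10 genes under any alternative run.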
